A study of Homo sapiens with 12 samples.

Results

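The G1/S replication and E2F genes are 48 protein-coding genes whose products license, start and carry out the copying of DNA, or that encode E2F transcription factors. They were taken by gene symbol from a list of names, which was chosen with earlier results of these data known. All 48 were found among the 27814 named genes of the deposited count table. All 48 also passed the filter on low counts, which left 16208 genes for testing. The smallest member count in any library was 32 and the largest 14479.

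Messenger RNA was sequenced from BT474, an established breast cancer line with hormone receptors and amplified HER2, in 4 groups of 3 libraries. Parental cells were kept in DMSO, the solvent, or were given 200 nM neratinib, an irreversible inhibitor of HER2 and related receptor kinases, for 4 h. Cells labelled as BRD8 knockout, called KO-labelled here, received the same pair of treatments, and BRD8 is a chromatin protein with a bromodomain that belongs to the TIP60 acetyltransferase complex. The labels do not state whether the KO-labelled cells were a clone or a pool, where BRD8 was edited, or whether replicates were separate cultures. The p-values therefore measure only the spread between these libraries, which may be technical.

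Entry into S phase is controlled by E2F factors, which the retinoblastoma protein holds in check until cyclin D and cyclin E kinases phosphorylate it. Free activator E2Fs switch on the genes for origin licensing, the replicative helicase, the polymerases and nucleotide synthesis, and in turn E2F7 and E2F8, which repress them again. In HER2-amplified breast cells, receptor signalling supports cyclin D1 and so feeds this switch.

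Totals over named genes ran from 32471198 to 44726160 counts per library, and within groups the pairwise Spearman correlations lay between 0.9983 and 0.9987. Their common biological coefficient of variation was 1.86%, so small differences passed the tests, and calls are read against the share of all genes called. BRD8 mRNA was at 64.9, 63.5 and 64.1 CPM (read counts divided by a library size that edgeR had scaled with the trimmed mean of M values) in the parental DMSO libraries and at 67.4, 66.1 and 68.8 CPM in the KO-labelled DMSO libraries. With neratinib it was at 232, 242 and 233 CPM in parental and 153, 158 and 157 CPM in KO-labelled libraries. The mRNA level thus did not mark the knockout in DMSO, and the genotype rests on the labels. All 11 luminal breast markers were present, with a summed level of 17591 to 17787 CPM in parental DMSO and 18662 to 18977 CPM in KO-labelled DMSO libraries. The sum does not stand for each marker. In KO-labelled DMSO cells 6 were called higher and 5 lower (36.0% and 35.6% of all tested genes). Of these, 2 were lower beyond 1.5-fold (edgeR's glmTreat). With neratinib the sums were 16334.5 to 16542 CPM in parental and 16498 to 16764 CPM in KO-labelled libraries. There 4 were called higher and 6 lower (34.7% and 36.9% of all tested genes), 3 of them lower beyond 1.5-fold. Of 8 fibroblast markers, 6 had a mean under 1 CPM, and PDGFRB, FAP, LUM and THY1 were at 0 in all parental DMSO libraries. Their sum, nearly all VIM and COL1A1, ran over 92.1 to 97.5 CPM for parental cells without drug and 117 to 125 CPM for KO-labelled cells without drug. With neratinib the ranges were 134 to 137 and 184 to 188 CPM for these genotypes. Of 8 blood markers, 7 had a mean under 1 CPM, with a summed level between 3.72 and 8.27 CPM over the 12 libraries. Of 4 endothelial markers 3 were under 1 CPM, and the sum, mostly VWF, was 12.1 to 12.2 CPM in parental and 33.9 to 34.8 CPM in KO-labelled DMSO libraries. The corresponding sums with neratinib were 14.4 to 15.3 and 36.8 to 41.05 CPM. The part of these markers in the results was not tested.

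Promoters were examined first, for sequence words of the type that E2F factors bind. Promoter windows of 300 bases, from 250 before to 50 after the transcription start, were available in the RefSeq table (GRCh38.p14) for 42 of the 48 members. Entries for MCM4, MCM5, GINS4, E2F8, DSCC1 and RMI2 were not matched. The windows were searched on both strands for 3 E2F-type words, TTTCGCGC, TTTGGCGC and TTTCCCGC. A gene was counted when any of its listed windows held a word, and the 42 members had 53 windows. At least 1 word was found in 24 of the 42 members (57.1%), against 661 of 12305 tested genes with a promoter in the table (5.37%). By word, TTTCGCGC was found in 6 members (14.3%), TTTGGCGC in 10 (23.8%) and TTTCCCGC in 13 (31.0%). The shares over tested genes were 1.14%, 1.30% and 3.10%. Some matches overlapped each other, as in MCM2 and MCM6. In the 200 bases before the start alone, 18 of the 42 members held a word. There the 3 words, in the same order, were in 9.52%, 16.7% and 26.2% of members. Over tested genes the shares were 0.805%, 0.861% and 2.18%. Matches numbered 32, of which 28 began before the start and 21 lay within 100 bases before it. The words were most frequent in origin licensing genes, where 6 of 8 genes held one. Among nucleotide supply genes it was 1 of 4.

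CCAAT, the box bound by NF-Y, was in 26 of the 42 members (61.9%), against 42.9% of tested genes. TTTGAA, the cell cycle homology element (CHR) through which the DREAM complex acts on mitotic genes, was in 2 of the 42 members (4.76%), against 14.0% of tested genes. Among G2/M genes it was in 15 of 20 (75%), while E2F-type words were in 2 of those 20. Other S-phase E2F target genes held an E2F-type word in 9 of 20 genes (45%). A match is a run of letters and does not show that a factor was bound.

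Shown are the promoters of 5 members from different roles, each the member of its role with the strongest fall under neratinib among those that hold a word. The 5 roles are those in which this fall was strongest, so that the letters can be set beside the values further on. Each is read 5′ to 3′ on the strand of its gene, in the GRCh38.p14 build, and the E2F-type word is in capitals. The window of CDCA7 (partner of a chromatin remodeller) is chr2:173354622-173354921 on the plus strand, that of E2F1 (activator) chr20:33686336-33686635 on the minus strand and that of CDC6 (licensing) chr17:40287629-40287928 on the plus strand. That of DTL (ubiquitin ligase receptor) is chr1:212035498-212035797 on the plus strand, and that of POLE2 (polymerase epsilon subunit) chr14:49688165-49688464 on the minus strand. The word began 65 bases before the start in CDCA7, 20 before in E2F1, 8 before in DTL and 5 before in POLE2, and 7 bases after it in CDC6. In CDCA7 and POLE2 it is written as its reverse complement.
CDCA7: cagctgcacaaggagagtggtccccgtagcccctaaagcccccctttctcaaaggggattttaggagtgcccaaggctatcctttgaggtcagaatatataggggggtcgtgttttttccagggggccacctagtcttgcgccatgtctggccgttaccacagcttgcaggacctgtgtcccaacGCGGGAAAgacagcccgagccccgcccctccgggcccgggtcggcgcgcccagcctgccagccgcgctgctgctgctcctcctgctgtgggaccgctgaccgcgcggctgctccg
E2F1: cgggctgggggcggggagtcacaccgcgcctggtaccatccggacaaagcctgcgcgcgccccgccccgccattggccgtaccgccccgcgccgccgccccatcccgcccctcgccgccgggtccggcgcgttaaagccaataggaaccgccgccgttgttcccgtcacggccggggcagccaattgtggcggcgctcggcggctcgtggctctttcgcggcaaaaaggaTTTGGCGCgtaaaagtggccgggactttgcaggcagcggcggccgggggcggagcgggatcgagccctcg
CDC6: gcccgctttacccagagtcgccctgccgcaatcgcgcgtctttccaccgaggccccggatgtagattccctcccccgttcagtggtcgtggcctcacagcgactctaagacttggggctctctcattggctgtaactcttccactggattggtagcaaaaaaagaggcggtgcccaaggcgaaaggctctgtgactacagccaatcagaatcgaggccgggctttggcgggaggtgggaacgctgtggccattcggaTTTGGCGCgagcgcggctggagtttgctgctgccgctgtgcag
DTL: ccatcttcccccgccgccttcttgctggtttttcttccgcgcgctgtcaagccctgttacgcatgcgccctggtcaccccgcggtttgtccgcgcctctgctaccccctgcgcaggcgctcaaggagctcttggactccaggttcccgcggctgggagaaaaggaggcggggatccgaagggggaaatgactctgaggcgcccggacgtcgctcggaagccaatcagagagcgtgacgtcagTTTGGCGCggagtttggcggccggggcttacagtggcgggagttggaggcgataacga
POLE2: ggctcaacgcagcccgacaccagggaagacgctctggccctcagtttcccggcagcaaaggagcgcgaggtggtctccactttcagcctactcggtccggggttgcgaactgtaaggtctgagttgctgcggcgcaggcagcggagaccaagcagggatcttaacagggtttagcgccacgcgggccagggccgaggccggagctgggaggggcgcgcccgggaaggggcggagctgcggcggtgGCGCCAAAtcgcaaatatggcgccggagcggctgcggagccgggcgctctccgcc

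**Figure D1:**
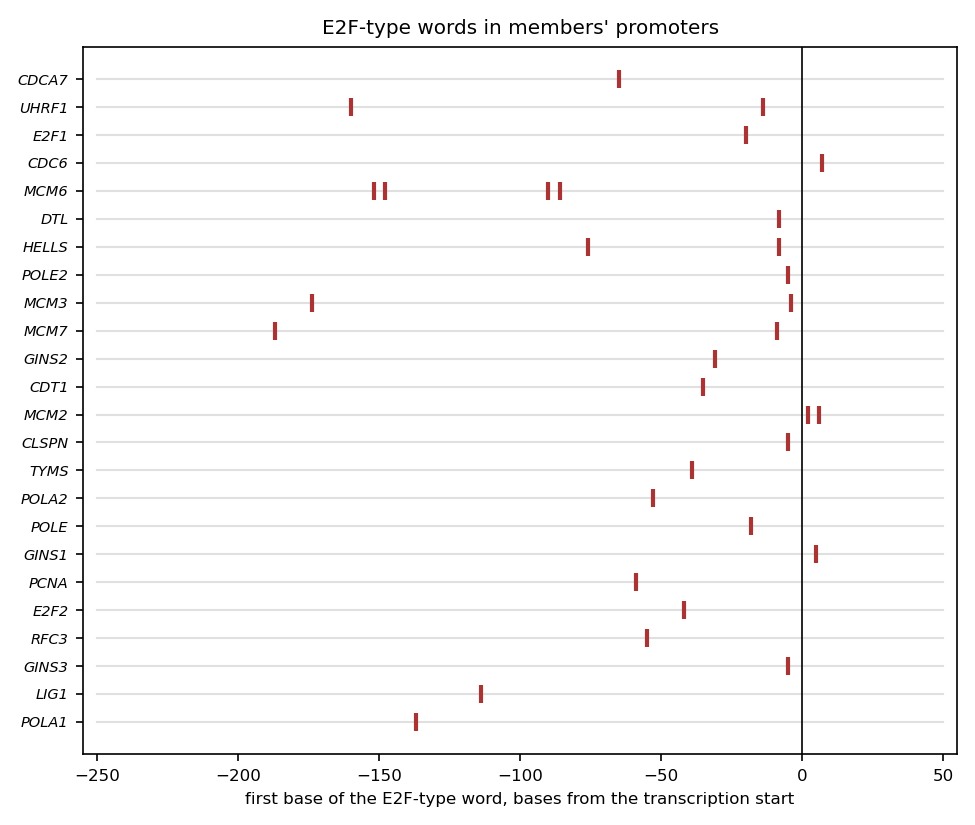
Positions of the E2F-type words in the promoters of the 24 members that hold 1 or more. The horizontal axis is the distance in bases from the transcription start to the first base of the word, each row is a gene ordered by its neratinib response in parental cells, and most ticks lie just left of the start, with 21 of 32 within 100 bases before it.

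The 24 members with a word had a median log2 change with neratinib of -0.89 in parental cells, ranging from -2.13 in CDCA7 to 0.20 in POLA1. The 18 members whose window held no word had a median of -0.65, ranging from -2.03 in RRM2 to -0.16 in POLD1. These parental ranges overlapped nearly throughout. In KO-labelled cells the medians were -0.45 with a word and -0.43 without one. No test was made between members with and without a word.

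Levels of different genes were compared per length, as CPM per kb of exon in the GENCODE 29 gene models (GRCh38). In parental DMSO cells, PCNA, the sliding clamp that holds polymerases on DNA, stood highest at 103 ± 3.38 CPM per kb (SD, n = 3). The helicase subunits MCM7 at 82.6 ± 0.4896, MCM3 at 58.5 ± 1.05 and MCM2 at 39.9 ± 0.468 CPM per kb came next. At the low end were HELLS at 1.67 ± 0.119, E2F8 at 1.58 ± 0.114 and E2F7 at 0.841 ± 0.0844 CPM per kb, so the members spanned a wide range of levels. In that order, 22 of 47 gaps between neighbours were larger than the sum of both SDs and 25 were not; MCM2 and SLBP, for example, could not be put in order. The libraries do not mark strand, and 8 members shared over 10% of their exon bases with other annotated genes. These were TYMS with 46.6%, POLA2 with 35.1%, MCM2 and GINS4 with 23.6% each, PRIM1 with 21.6%, RRM2 with 20.2%, GINS3 with 10.9% and RFC5 with 10.7%. Reads from such stretches cannot be assigned to either gene, while 27 members had no shared exon base.

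**Figure D2:**
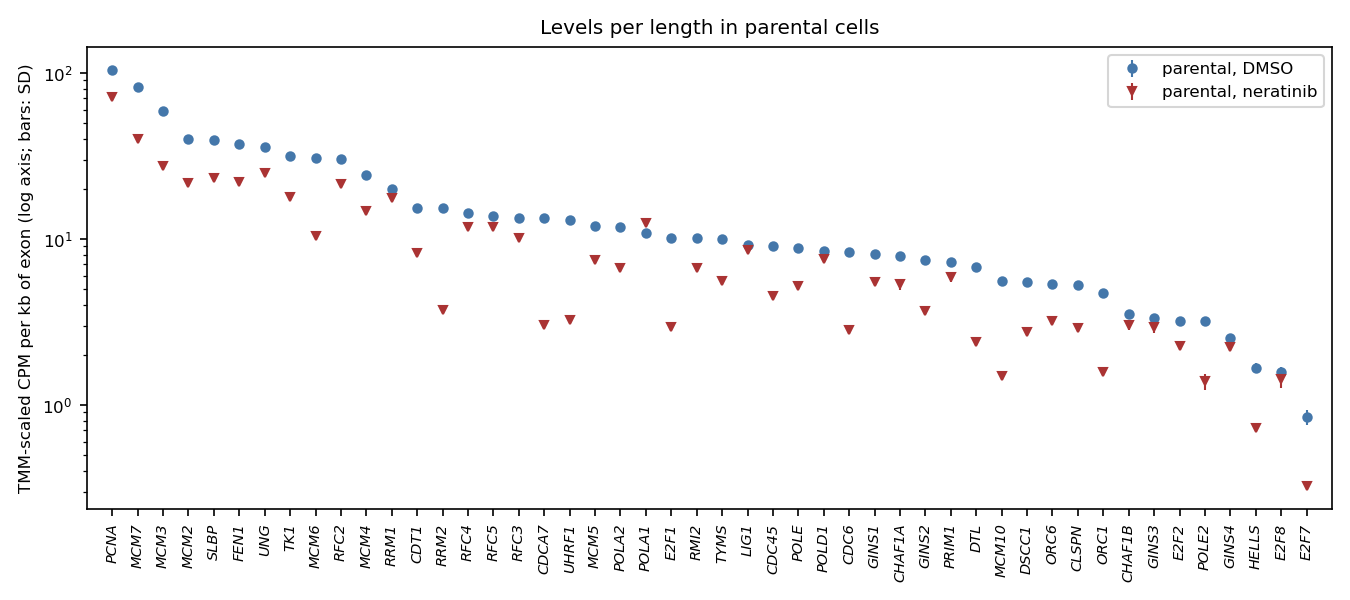
Level of each member in parental cells, as mean TMM-scaled CPM per kb of exon on a log axis, with SD bars over 3 libraries per group, in DMSO (circles) and neratinib (triangles). Genes are ordered by their DMSO level, from PCNA to E2F7, and the triangle lies above the circle only for POLA1.

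Neratinib lowered nearly the whole module within 4 h in parental cells. Of the 48 members, 46 were called lower, 1 higher and 1 was not called (edgeR quasi-likelihood test, adjusted p below 0.05 over all genes), where 38.9% of all tested genes were called lower and 41.8% higher. The member that rose was POLA1, and the one not called was E2F8 (log2 change -0.15 ± 0.086, SE; edgeR adjusted p = 0.0977). E2F8 was called lower without parental DMSO replicate 2 (0.0399), parental neratinib replicate 1 (0.0455) or parental neratinib replicate 2 (0.0459), and without the low-count filter (0.0452). The median log2 change was -0.77, against 0.039 over all tested genes. In 45 members every neratinib library lay below every DMSO library, as it did for 39.1% of all tested genes. A fall beyond 1.5-fold was called in 29 members (14.0% of all tested genes) and beyond 2-fold in 14 (5.39% of all tested genes), both with edgeR's glmTreat. Summed over the 48 members, the level was 3056 ± 7.49 CPM in DMSO and 1764 ± 9.01 CPM in neratinib (SD, n = 3), a drop of 42.3%. In bulk RNA, fewer cells in S phase and less of these mRNAs in each cell cannot be told apart.

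In KO-labelled cells the fall was smaller. Here 42 members were called lower, 1 higher and 5 were not called, where 38.4% of all tested genes were called lower and 38.9% higher. The median log2 change was -0.44, against 0.017 over all tested genes. The libraries of 43 members were all lower in neratinib than in DMSO (38.8% of all tested genes). Falls beyond 1.5-fold numbered 16 (10.6% of all tested genes) and beyond 2-fold 3 (3.29% of all tested genes). The summed level went from 2696 ± 13.96 to 1899 ± 4.45 CPM, a drop of 29.6%. The members called lower in both genotypes numbered 41 of 48, where 32.2% of all tested genes were. POLA1, again the only member called higher, rose by 0.079 ± 0.029 (log2, SE), a call that was lost without KO-labelled DMSO replicate 3 or KO-labelled neratinib replicate 1. With DESeq2 it was lost too, leaving 0 members higher. Not called were GINS1 (-0.0083 ± 0.043), GINS3 (-0.11 ± 0.059), RFC4 (-0.053 ± 0.034), RFC5 (-0.040 ± 0.035) and POLD1 (0.059 ± 0.037, log2, SE). GINS3 and RFC4 were called lower without KO-labelled DMSO replicate 3 (edgeR adjusted p = 0.0191 and 0.0461) and without the low-count filter (0.0170 and 0.0247), and POLD1 was called higher under 3 other settings, such as upper quartile scaling (0.00559).

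The difference between these responses was tested with the interaction term, which subtracts the parental log2 response from the KO-labelled one and uses all 4 groups. It was positive, meaning a smaller fall in KO-labelled cells, in 30 members and negative in 3, where 21.5% of all tested genes were called positive and 24.6% negative. For 15 members it was not called. The median interaction was 0.24, against -0.023 over all tested genes. A positive interaction beyond 1.5-fold was called in 6 members, CDCA7, DTL, UHRF1, E2F1, ORC1 and MCM6, where 1.10% of all tested genes passed. With the coefficient of variation set to 0.1 in place of the measured spread, 13 members were called positive and 0 negative.

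**Figure D3:**
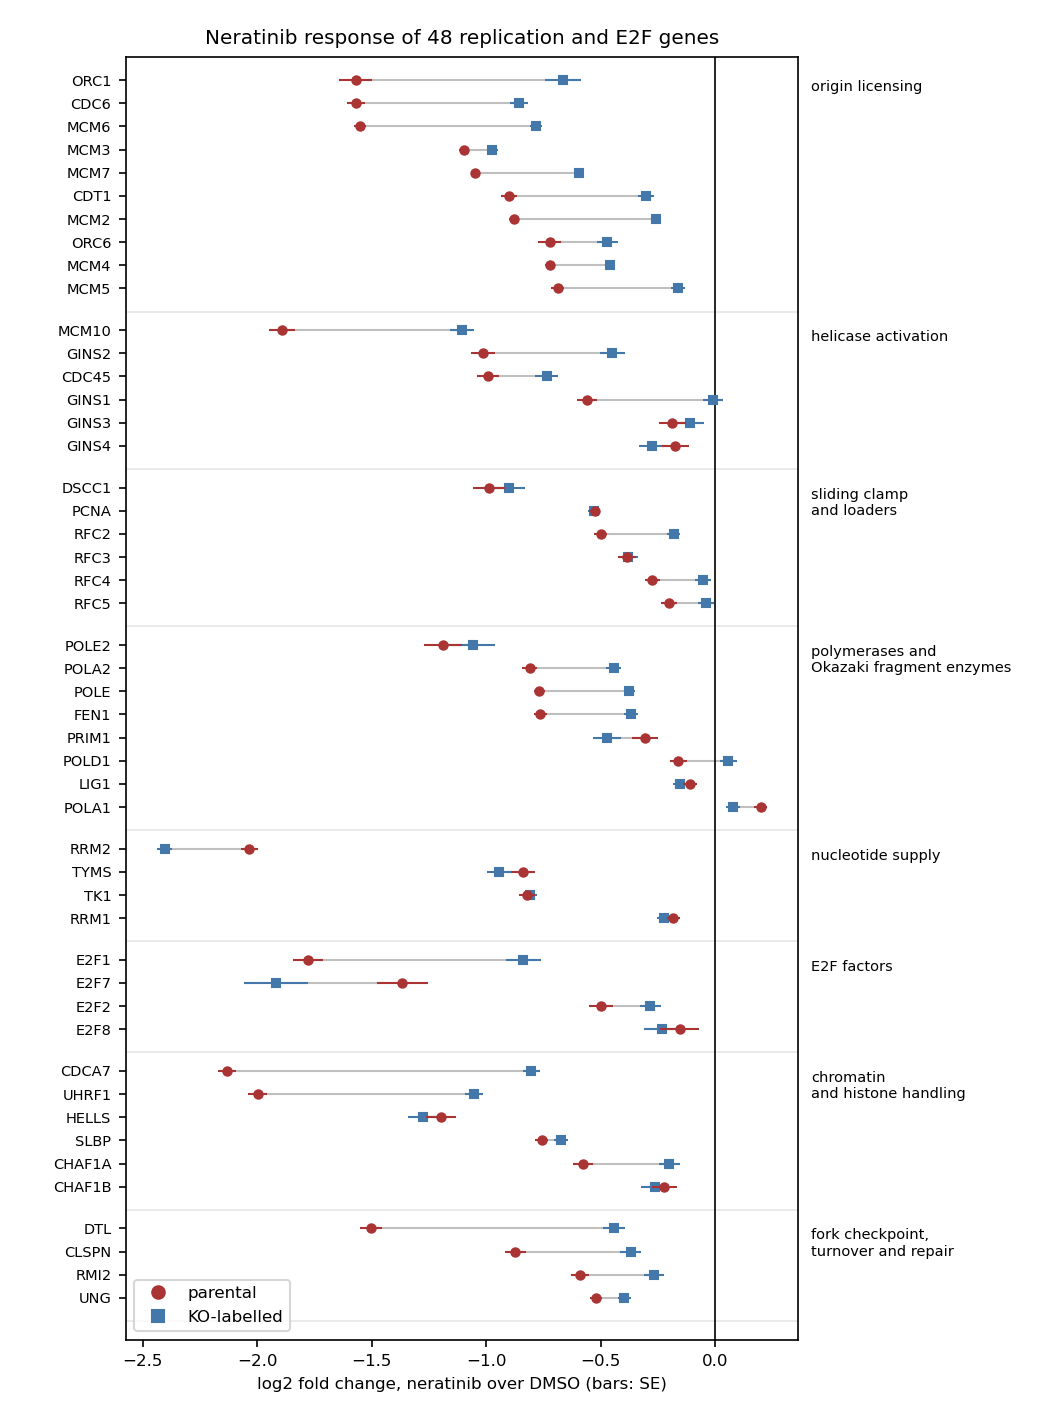
Log2 fold change with neratinib of each of the 48 members, with SE bars, in parental (circles) and KO-labelled cells (squares), grouped by role. All 10 origin licensing genes have the square to the right of the circle, a smaller fall in KO-labelled cells, while for RRM2 and E2F7 the square lies to the left.

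Origin licensing genes, which load the MCM helicase onto DNA in G1, fell together. Counts in this and the following roles are read against the shares of all tested genes given above. All 10 were called lower with neratinib in both genotypes, with a median log2 change of -0.97 in parental cells and -0.53 in KO-labelled ones. In all 10 the fall was beyond 1.5-fold in parental cells, and in 3 it was in KO-labelled cells. The interaction was called positive in all 10, with a median of 0.56. CDC6, the loader ATPase whose promoter is shown above, was at 46.8, 45.96 and 46.7 CPM in the parental DMSO libraries and 15.9, 16.4 and 14.7 CPM in the parental neratinib libraries. In KO-labelled cells it was at 41.9, 41.6 and 40.1 CPM in DMSO and 23.5, 22.6 and 22.4 CPM in neratinib. All KO-labelled libraries were thus lower than the parental ones in DMSO and higher in neratinib. The response of CDC6 was -1.57 ± 0.040 in parental and -0.86 ± 0.039 in KO-labelled cells (log2, SE), and the interaction 0.71 ± 0.057 (edgeR adjusted p = 4.68e-14). ORC1, the largest subunit of the origin recognition complex, had parental levels of 14.5, 14.8 and 15.1 CPM in DMSO and 4.996, 4.92 and 5.01 CPM in neratinib. KO-labelled levels were 9.33, 8.301 and 9.54 and 6.57, 5.25 and 5.36 CPM. In DMSO the genotypes did not overlap, with ORC1 lower by 0.72 ± 0.065 in KO-labelled cells. In neratinib every KO-labelled library lay above the parental ones, with an interaction of 0.91 ± 0.11, but the difference of 0.19 ± 0.089 (log2, SE) missed the threshold (edgeR adjusted p = 0.0525); it passed under 10 other settings, among them without KO-labelled neratinib replicate 2 (0.0214) or 3 (0.0377), KO-labelled DMSO replicate 1 (0.0428) or 2 (0.0497), or parental DMSO replicate 3 (0.0451).

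MCM2, a subunit of the helicase ring, was at 193, 198 and 196 CPM in parental DMSO libraries against 132, 131 and 130.2 CPM in KO-labelled ones, and at 107, 107 and 105 against 111, 108 and 109.8 CPM in neratinib. A clear gap between genotypes in DMSO (-0.57 ± 0.021, log2, SE) was thus followed by nearly equal levels in neratinib (0.046 ± 0.022; edgeR adjusted p = 0.0666). Every KO-labelled library still lay above the parental ones there, and the difference passed the threshold under 6 other settings, among them without KO-labelled DMSO replicate 1 (0.0308) or parental DMSO replicate 3 (0.0367). MCM2 fell by 0.88 ± 0.021 in parental cells, and its interaction was 0.62 ± 0.030. MCM6 went from 123, 127 and 128 to 42.6, 43.5 and 42.9 CPM in parental libraries, and from 103, 103 and 102 to 61.6, 57.6 and 60.2 CPM in KO-labelled libraries. The order of the genotypes turned over, with MCM6 lower in KO-labelled cells by 0.29 ± 0.025 in DMSO and higher by 0.47 ± 0.031 in neratinib (log2, SE). CDT1, the partner of CDC6 in loading, kept more of its level in KO-labelled cells: 38.02, 38.97 and 37.2 CPM in neratinib against 26.5, 28.2 and 27.8 CPM in parental libraries, from 47.4, 46.2 and 47.4 and 50.4, 51.3 and 51.8 CPM in DMSO. MCM5 had an interaction of 0.53 ± 0.044 and MCM7 of 0.45 ± 0.027; of MCM4 it was 0.26 ± 0.031, and of the origin recognition subunit ORC6 0.25 ± 0.067 (log2, SE). MCM3 had the smallest difference of the 10, at 0.12 ± 0.032: it fell from 217, 214 and 209 to 99.1, 100.4 and 100.2 CPM in parental and from 174, 171 and 177 to 87.9, 86.9 and 90.9 CPM in KO-labelled libraries, and was lower in KO-labelled cells under both treatments. Its fall of 0.97 ± 0.023 in KO-labelled cells compares with 1.10 ± 0.022 in parental cells.

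Helicase activation genes complete the working helicase with CDC45 and the 4 GINS subunits, with MCM10 as activator. All 6 were called lower with neratinib in parental cells (median log2 change -0.78) and 4 of 6 in KO-labelled cells (median -0.36), and 4 of 6 had a positive interaction. MCM10 was at 30.7, 30.7 and 28.99 CPM in parental DMSO and 8.53, 8.01 and 7.74 CPM in parental neratinib libraries, and at 26.3, 25.3 and 28.6 and 12.4, 11.9 and 12.8 CPM in the matching KO-labelled libraries. All 6 neratinib libraries lay far below the DMSO ones, and the KO-labelled ones fell less, by 1.11 ± 0.052 against 1.89 ± 0.055 on the log2 scale (SE). GINS1 differed most in kind. It fell from 33.2, 34.4 and 31.3 to 22.04, 22.96 and 22.2 CPM in parental cells, whereas KO-labelled libraries, at 25.4, 24.1 and 25.9 CPM in DMSO and 24.6, 25.5 and 24.7 CPM in neratinib, overlapped. The interaction of GINS1 was 0.55 ± 0.060 (log2, SE; edgeR adjusted p = 2.58e-10). GINS2 fell by 1.01 ± 0.051 in parental and 0.45 ± 0.054 in KO-labelled cells, and CDC45 by 0.99 ± 0.049 and 0.74 ± 0.049 (log2, SE). GINS3, with an interaction of 0.078 ± 0.082, and GINS4, with -0.10 ± 0.082, were not called for it. GINS4 was the only member of this role that was higher in KO-labelled cells under both treatments, by 0.30 ± 0.056 in DMSO and 0.20 ± 0.060 in neratinib. Its neighbours on the chromosome had medians of similar size, given further on.

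The clamp and its loaders had the smallest median fall of the 8 roles. All 6 were called lower with neratinib in parental cells (median log2 change -0.44) and 4 in KO-labelled cells (median -0.28), with a positive interaction in RFC2, RFC4 and RFC5. PCNA was at 147, 152 and 157 CPM in parental and 155, 151 and 144 CPM in KO-labelled DMSO libraries, and at 108, 104 and 105 and 104, 104 and 105 CPM with neratinib. The genotypes overlapped under both treatments. PCNA fell by 0.53 ± 0.025 in parental and 0.53 ± 0.025 in KO-labelled cells, and its interaction was -0.0043 ± 0.036 (log2, SE; edgeR adjusted p = 0.938). RFC2, a subunit of the clamp loader, went from 67.4, 67.5 and 65.9 to 48.3, 46.7 and 46.8 CPM in parental and from 61.5, 60.8 and 59.7 to 54.7, 52.8 and 53.3 CPM in KO-labelled libraries. It was lower in KO-labelled cells in DMSO (-0.14 ± 0.029) and higher in neratinib (0.18 ± 0.031, log2, SE). The subunit RFC3 was lower under both treatments, by 0.22 ± 0.039 and 0.21 ± 0.043. RFC4 had an interaction of 0.22 ± 0.048 and RFC5 of 0.16 ± 0.049. In neratinib the genotype difference of RFC4 (0.069 ± 0.035; edgeR adjusted p = 0.0714) was not called, but it passed under 8 other settings, among them without parental DMSO replicate 3 (0.0475), KO-labelled DMSO replicate 1 (0.0455), parental neratinib replicate 1 (0.0358) or KO-labelled neratinib replicate 1 (0.0342). DSCC1, a subunit of an alternative loader used in sister chromatid cohesion, had the largest fall of the role, by 0.99 ± 0.070 in parental and 0.90 ± 0.070 in KO-labelled cells, with no call for the interaction.

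Polymerases and the enzymes that join Okazaki fragments were mixed. In parental cells 7 of 8 were called lower and 1 higher with neratinib (median log2 change -0.53), and in KO-labelled cells 6 lower and 1 higher (median -0.37). POLE2, a subunit of polymerase epsilon, fell the most. It was at 9.66, 9.75 and 8.79 CPM in parental DMSO, 4.43, 3.56 and 4.26 in parental neratinib, 6.82, 6.91 and 6.84 in KO-labelled DMSO and 3.196, 3.03 and 3.72 CPM in KO-labelled neratinib libraries. POLE2 fell by 1.19 ± 0.083 in parental and 1.06 ± 0.095 in KO-labelled cells. KO-labelled cells were lower under both treatments, by 0.45 ± 0.075 in DMSO and 0.32 ± 0.11 in neratinib (log2, SE). In neratinib the libraries overlapped, and that call was lost without KO-labelled neratinib replicate 2 (edgeR adjusted p = 0.0562) or parental neratinib replicate 1 (0.0656). POLE, the catalytic subunit, was at 145, 146 and 148 CPM in parental DMSO and 87.9, 85.9 and 83.6 CPM in parental neratinib libraries, and at 136, 134 and 137 and 102, 106 and 105 CPM in KO-labelled libraries, so that the order of the genotypes turned over. FEN1, the flap nuclease, was lower in KO-labelled cells by 0.52 ± 0.028 in DMSO, with 63.4, 66.1 and 64.7 CPM against 91.6, 92.97 and 93.3 CPM. In neratinib the gap was 0.12 ± 0.031, with 50.7, 48.9 and 51.2 against 52.996, 55.2 and 55.6 CPM. The interaction was 0.40 ± 0.041 for FEN1, 0.37 ± 0.048 for POLA2, the regulatory subunit of polymerase alpha that fell by 0.81 in parental cells, and 0.22 ± 0.052 for POLD1, the catalytic subunit of polymerase delta (log2, SE).

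POLA1, the catalytic subunit of polymerase alpha that extends primers, went the other way from the rest. Parental libraries held 71.97, 67.9 and 66.7 CPM in DMSO and 79.5, 78.1 and 79.6 CPM in neratinib, and KO-labelled libraries 80.9, 78.2 and 75.2 and 84.95, 81.3 and 81.6 CPM. The parental libraries did not overlap, and POLA1 rose by 0.20 ± 0.030 (log2, SE; edgeR adjusted p = 7.16e-08). With the coefficient of variation set to 0.1 the adjusted p was 0.135. Its negative interaction of -0.12 ± 0.042 (edgeR adjusted p = 0.0154) was lost with DESeq2 (adjusted p = 0.112), with DESeq2-style size factors (0.0508) and without any 1 of parental DMSO replicate 3 (0.160), KO-labelled DMSO replicate 1 (0.169), parental neratinib replicate 1 (0.0842) or parental neratinib replicate 3 (0.0865). PRIM1, the catalytic subunit of primase, fell by 0.30 ± 0.056 and 0.47 ± 0.061 in the parental and KO-labelled cells. LIG1, the ligase that seals Okazaki fragments, fell by 0.11 ± 0.029 and 0.15 ± 0.029. Its DMSO difference of 0.073 ± 0.029 (edgeR adjusted p = 0.0228) was lost when any 1 of 7 libraries was left out, with adjusted p up to 0.139 without KO-labelled DMSO replicate 3.

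Nucleotide supply genes, which make the building blocks of DNA, fell in both genotypes. All 4 were called lower in both, with a median log2 change of -0.83 in parental cells and -0.88 in KO-labelled ones. A positive interaction was called in 0 of 4, where 21.5% of all tested genes had one, so this count does not set the role apart. RRM2, the subunit of ribonucleotide reductase whose supply limits the enzyme in S phase, was at 80.4, 82.1 and 81.5 CPM in parental and 118, 113 and 112 CPM in KO-labelled DMSO libraries. With neratinib it was at 20.6, 20.2 and 18.8 and 20.3, 22.4 and 21.9 CPM. KO-labelled cells thus started higher by 0.49 ± 0.028 and ended 0.12 ± 0.046 above parental cells (log2, SE), with overlapping libraries. The latter call was lost without parental neratinib replicate 3, KO-labelled neratinib replicate 2 or KO-labelled neratinib replicate 3 (edgeR adjusted p = 0.0997, 0.128 and 0.0503). RRM2 had the strongest fall of any member in KO-labelled cells, 2.41 ± 0.035 against 2.03 ± 0.036 in parental cells, and a negative interaction of -0.37 ± 0.054 (edgeR adjusted p = 1.69e-07). TK1, the thymidine salvage kinase, was at 59.4, 59.4 and 57.5 CPM in parental and 79.2, 80.6 and 75.99 CPM in KO-labelled DMSO libraries, and at 33.9, 32.7 and 32.9 and 44.1, 47.1 and 43.3 CPM with neratinib. It was higher in KO-labelled cells by nearly the same amount under both treatments, 0.42 ± 0.030 and 0.43 ± 0.036, with an interaction of 0.012 ± 0.047 (log2, SE). TYMS, thymidylate synthase, fell by 0.84 ± 0.053 and 0.94 ± 0.054, and RRM1, the large reductase subunit, by 0.18 ± 0.027 and 0.22 ± 0.027. TYMS shared most of its overlapped exon bases with ENOSF1.

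The E2F factors did not behave alike. E2F1, the activator that opens the programme, was at 26.3, 25.5 and 24.1 CPM in parental DMSO libraries and at 12.6, 12.1 and 11.8 CPM in KO-labelled DMSO libraries, the largest genotype difference of any member in DMSO (-1.05 ± 0.058, log2, SE; edgeR adjusted p = 2.55e-20). With neratinib the libraries overlapped, at 7.66, 6.92 and 7.45 CPM in parental and 7.397, 7.44 and 5.56 CPM in KO-labelled cells. E2F1 fell by 1.78 ± 0.064 in parental but 0.84 ± 0.075 in KO-labelled cells, with an interaction of 0.94 ± 0.10 (edgeR adjusted p = 2.41e-10). E2F2, another activator, had the opposite genotype difference. It was at 17.8, 17.2 and 17.6 CPM in parental and 25.7, 25.3 and 24.3 CPM in KO-labelled DMSO libraries, and at 13.2, 12.2 and 11.7 and 20.4, 20.8 and 20.7 CPM with neratinib. No library of either genotype overlapped the other, and the difference was 0.52 ± 0.046 in DMSO and 0.74 ± 0.051 in neratinib (log2, SE). E2F7, an atypical E2F that represses the programme, was low throughout, at 4.73, 5.396 and 5.78 CPM in parental DMSO, 3.88, 3.84 and 3.62 in KO-labelled DMSO, 2.01, 2.02 and 2.13 in parental neratinib and 1.15, 0.969 and 0.894 CPM in KO-labelled neratinib libraries. E2F7 fell by 1.37 ± 0.11 and 1.92 ± 0.14, and it was lower in KO-labelled cells under both treatments, by 0.48 ± 0.10 and 1.03 ± 0.16. Its negative interaction of -0.55 ± 0.19 (edgeR adjusted p = 0.0157) was lost with DESeq2 (adjusted p = 0.0714) and without KO-labelled neratinib replicate 3 (0.0575). E2F8, its relative, was instead higher in KO-labelled cells, at 9.35, 8.44 and 8.89 against 6.64, 6.04 and 6.97 CPM in DMSO (0.44 ± 0.079) and 7.07, 8.13 and 7.35 against 6.22, 6.37 and 5.09 CPM in neratinib (0.36 ± 0.084, log2, SE).

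**Figure D4:**
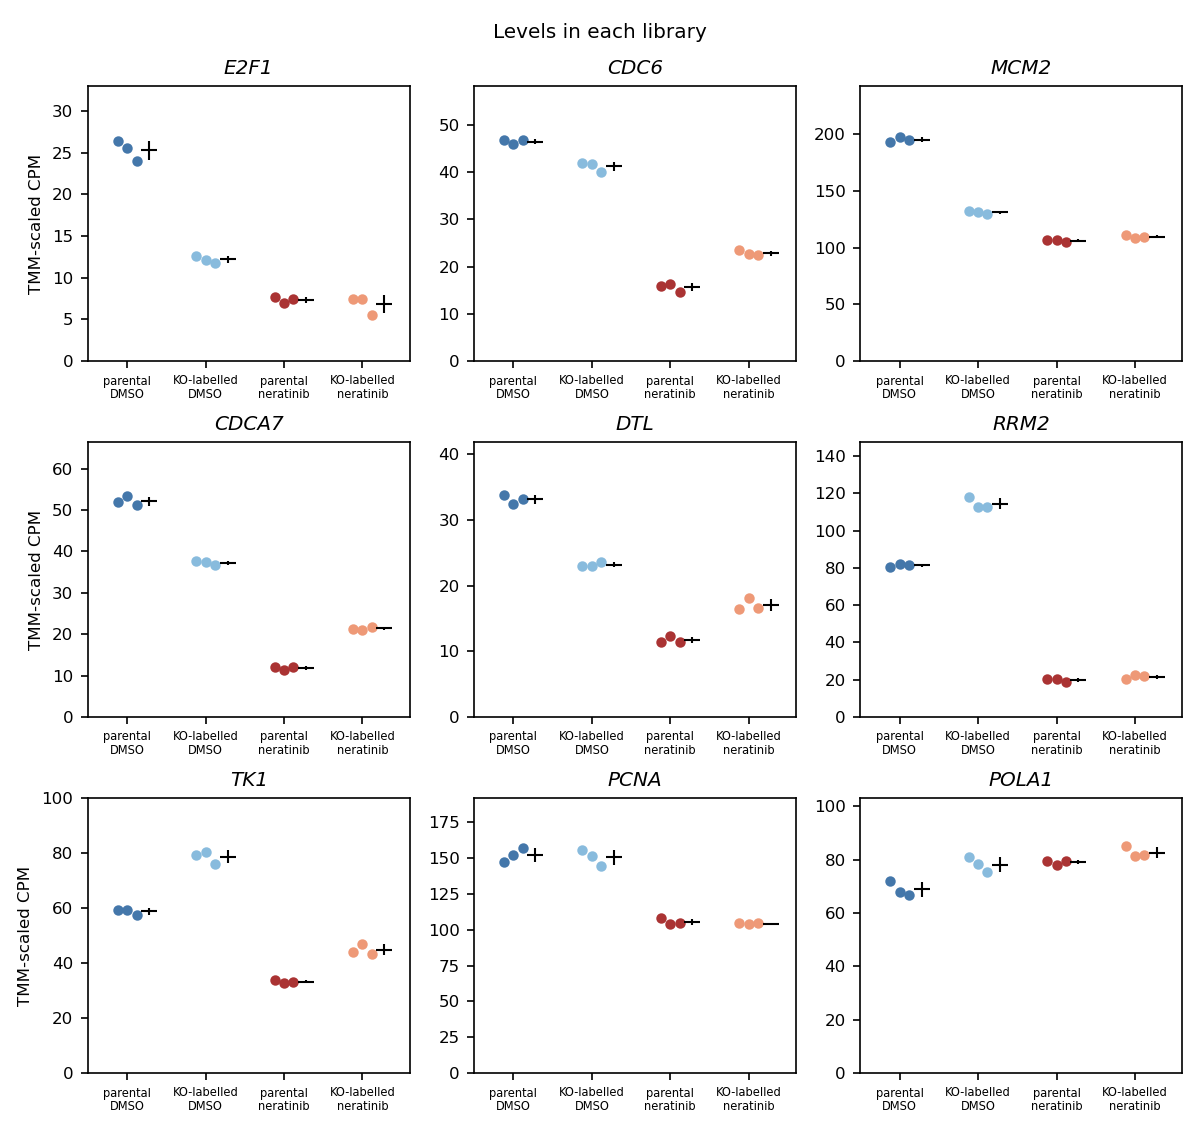
TMM-scaled CPM of 9 members in each library (points; linear axes from 0), with the mean and SD of each group of 3 as a cross. E2F1 and MCM2 differ between genotypes in DMSO and meet in neratinib, CDC6, CDCA7 and DTL change order, PCNA does not separate the genotypes, and POLA1 is higher with neratinib.

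Genes for chromatin at the fork included CDCA7, the member with the largest fall in parental cells. All 6 were called lower with neratinib in both genotypes, with a median log2 change of -0.98 in parental cells and -0.74 in KO-labelled ones. CDCA7, which recruits the remodeller HELLS, was at 51.9, 53.3 and 51.2 CPM in parental DMSO and 12.1, 11.4 and 12.1 CPM in parental neratinib libraries. KO-labelled libraries held 37.6, 37.5 and 36.6 CPM in DMSO and 21.3, 21.01 and 21.8 CPM in neratinib. The order of the genotypes turned over without overlap. CDCA7 fell by 2.13 ± 0.041 in parental and 0.80 ± 0.039 in KO-labelled cells, and the interaction was 1.33 ± 0.058 (log2, SE; edgeR adjusted p = 8.12e-23), the largest of the members and the only one called beyond 2-fold. UHRF1, which ties DNA methylation to the fork, followed the same order: 64.2, 68.2 and 66.8 CPM in parental and 51.4, 52.3 and 54.95 CPM in KO-labelled DMSO libraries, then 17.1, 16.9 and 15.8 and 26.9, 24.3 and 25.3 CPM with neratinib. UHRF1 fell by 1.999 ± 0.040 and 1.05 ± 0.038, with an interaction of 0.95 ± 0.057 (log2, SE). HELLS itself fell in both, by 1.20 ± 0.066 and 1.27 ± 0.069, with an interaction of -0.078 ± 0.10 that was not called. The subunits of the histone chaperone CAF-1 differed from each other. CHAF1A fell by 0.58 ± 0.044 in parental and 0.20 ± 0.046 in KO-labelled cells (interaction 0.38 ± 0.064). CHAF1B fell by 0.22 ± 0.054 and 0.26 ± 0.061, and was lower in KO-labelled cells by 0.46 ± 0.055 in DMSO and 0.50 ± 0.059 in neratinib. SLBP, which binds the stem-loop of histone mRNAs, was at 78.5, 79.6 and 80.4 CPM in parental and 82.2, 78.3 and 78.2 CPM in KO-labelled DMSO libraries, with no call (0.0021 ± 0.027), and fell by 0.76 ± 0.029 and 0.67 ± 0.029.

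All 4 genes for fork checkpoint, turnover and repair fell in both genotypes, with a median log2 change of -0.73 in parental cells and -0.38 in KO-labelled ones, and all 4 had a positive interaction. DTL, the receptor through which a PCNA-bound ubiquitin ligase destroys CDT1, was at 33.8, 32.5 and 33.1 CPM in parental DMSO and 11.5, 12.3 and 11.4 CPM in parental neratinib libraries, and at 22.9, 23.1 and 23.6 and 16.4, 18.1 and 16.6 CPM in KO-labelled libraries. DTL fell by 1.504 ± 0.047 in parental and 0.44 ± 0.047 in KO-labelled cells, with an interaction of 1.06 ± 0.068 (log2, SE; edgeR adjusted p = 3.19e-17). CLSPN, the adaptor that lets ATR activate CHK1, was at 15.7, 16.6 and 14.8 CPM in parental and 20.1, 20.8 and 20.9 CPM in KO-labelled neratinib libraries, from 29.7, 28.3 and 27.96 and 26.995, 26.5 and 26.3 CPM in DMSO, and fell by 0.87 ± 0.045 in parental cells. UNG, the glycosylase that removes uracil from DNA, and RMI2, a subunit of the BLM helicase complex, were lower in KO-labelled cells under both treatments. The differences were -0.48 ± 0.026 and -0.35 ± 0.029 for UNG and -0.51 ± 0.039 and -0.18 ± 0.044 for RMI2 (log2, SE). UNG fell by 0.40 ± 0.028 with neratinib in KO-labelled cells.

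Further genotype differences, of members described above by their levels or responses, were these. In DMSO, GINS2 differed by -0.48 ± 0.047, GINS1 by -0.39 ± 0.041 and RFC5 by -0.20 ± 0.034. CDCA7 differed by -0.48 ± 0.033, DTL by -0.52 ± 0.042, CDC6 by -0.17 ± 0.034 and ORC6 by 0.16 ± 0.043 (log2, SE). In neratinib, among the 22 members called higher in KO-labelled cells were CDCA7 (0.85 ± 0.048), UHRF1 (0.62 ± 0.047), MCM10 (0.60 ± 0.066), DTL (0.55 ± 0.054), CDC6 (0.54 ± 0.046) and CLSPN (0.40 ± 0.048). Among the 10 called lower were PRIM1 (-0.37 ± 0.062) and MCM3 (-0.17 ± 0.025). CDCA7, CDC6 and DTL, whose promoters are printed above, were lower in DMSO and higher in neratinib, whereas POLE2 was lower in both. Members not called in neratinib included MCM5 at 0.042 ± 0.032, GINS2 at 0.089 ± 0.057, RFC4 at 0.069 ± 0.035, POLA2 at 0.033 ± 0.036, CHAF1A at 0.045 ± 0.047, PCNA at -0.019 ± 0.026, TYMS at -0.060 ± 0.060 and HELLS at -0.17 ± 0.080. Also not called were ORC1, MCM2 and E2F1 (-0.11 ± 0.084), RFC5 (-0.039 ± 0.035), GINS3 (-0.017 ± 0.059), DSCC1 (0.070 ± 0.080), POLA1 (0.061 ± 0.029) and LIG1 (0.029 ± 0.030). Beside ORC1, MCM2 and RFC4, POLA1 was called higher without parental DMSO replicate 3 (edgeR adjusted p = 0.0307), KO-labelled DMSO replicate 1 (0.0275) or parental neratinib replicate 3 (0.0478). HELLS was called lower without parental DMSO replicate 1 (0.0485), KO-labelled DMSO replicate 3 (0.0491) or KO-labelled neratinib replicate 3 (0.0179), and without the low-count filter (0.0395).

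The interaction was not called for GINS3, GINS4, PCNA, DSCC1, TK1, TYMS, HELLS and LIG1 (-0.045 ± 0.042), nor for RFC3 (0.0058 ± 0.058), PRIM1 (-0.17 ± 0.084), POLE2 (0.13 ± 0.13), RRM1 (-0.044 ± 0.038), E2F8 (-0.080 ± 0.12), CHAF1B (-0.041 ± 0.081) and SLBP (0.085 ± 0.042, log2, SE). PRIM1 was called negative without KO-labelled DMSO replicate 2 (edgeR adjusted p = 0.0369) or KO-labelled neratinib replicate 2 (0.0425). SLBP was called positive without KO-labelled DMSO replicate 1 (0.0113) or parental neratinib replicate 1 (0.0280). A call that was missed does not show that the genotypes responded alike.

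Between genotypes in DMSO, the module was lower in KO-labelled cells. Of 48 members, 32 were called lower, 8 higher and 8 not called, where 35.6% of all tested genes were called lower and 36.0% higher. The median log2 difference was -0.18, against 0.0022 over all tested genes. Differences beyond 1.5-fold were called only for E2F1 and ORC1, both lower, which is 2 of 48 members (5.20% of all tested genes). The members higher in KO-labelled cells were E2F2, RRM2, E2F8, TK1, GINS4, POLA1, ORC6 and LIG1, from 0.52 down to 0.073 on the log2 scale. Not called were MCM4 (-0.0025 ± 0.021), GINS3 (-0.10 ± 0.057), PCNA (-0.015 ± 0.024), DSCC1 (-0.018 ± 0.062), RRM1 (-0.052 ± 0.027), TYMS (0.045 ± 0.048), HELLS (-0.090 ± 0.057) and SLBP (0.0021 ± 0.027, log2, SE). Of these, GINS3 was called lower without parental DMSO replicate 3 (edgeR adjusted p = 0.0272) or KO-labelled DMSO replicate 1 (0.0266), and HELLS without parental DMSO replicate 1 (0.0379). RRM1 was called lower without parental DMSO replicate 1 (0.0340), KO-labelled DMSO replicate 1 (0.0378), parental neratinib replicate 1 (0.0290) or parental neratinib replicate 3 (0.0301). With the coefficient of variation set to 0.1, 19 members were called lower and 5 higher. The summed level was 11.8% lower in KO-labelled than in parental cells, and that of the nucleotide supply genes 20.4% higher. Of the nucleotide supply genes, RRM2 and TK1 were called higher, while RRM1 and TYMS were not called.

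After neratinib, more members were higher than lower in KO-labelled cells. Of 48 members, 22 were called higher in KO-labelled cells, 10 lower and 16 not called, where 34.7% of all tested genes were called higher and 36.9% lower. The median log2 difference was 0.079, against -0.019 over all tested genes. Beyond 1.5-fold, CDCA7 and E2F2 were higher (2 of 48 members, 9.64% of all tested genes) and E2F7 was lower (1 of 48, 5.05% of all tested genes). With the coefficient of variation set to 0.1, 13 members were called higher and 4 lower. The summed level was 7.68% higher in KO-labelled cells, with 12.1% for origin licensing and 30.1% for the E2F factors. The E2F sum does not stand for each factor. E2F2 (0.74) and E2F8 (0.36) were called higher, E2F7 (-1.03) was called lower and E2F1 (-0.11, log2) was not called. The members called lower were E2F7, CHAF1B, PRIM1, UNG, POLE2, RFC3, RMI2, MCM3, FEN1 and RRM1, from -1.03 to -0.10 on the log2 scale.

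Read together, 14 members were called lower in KO-labelled cells in DMSO and higher in neratinib, a combination that 3.01% of all tested genes had. These were CDC6, CDT1, MCM6, MCM7, MCM10, CDC45, GINS1, RFC2, POLD1, POLE, UHRF1, CDCA7, CLSPN and DTL. Another 9, namely ORC1, MCM2, MCM5, GINS2, RFC4, RFC5, POLA2, E2F1 and CHAF1A, were lower in DMSO and not called in neratinib (7.32% of all tested genes). Lower under both treatments were 9 members, MCM3, FEN1, UNG, RMI2, E2F7, RFC3, PRIM1, POLE2 and CHAF1B (25.3% of all tested genes). GINS3, PCNA, DSCC1, TYMS and HELLS were called in neither treatment, although GINS3 and HELLS passed when single libraries were left out, as stated for each treatment. For these 5 the interaction ranged from -0.11 in TYMS to 0.088 in DSCC1. Across the 48 members, which are not independent replicates, the neratinib responses of parental and KO-labelled cells had a Pearson correlation of 0.743, and the genotype differences in DMSO and in neratinib one of 0.311. Neither pair of comparisons shares a library. By estimate alone, the interaction was positive in 36 members and negative in 12.

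**Figure D5:**
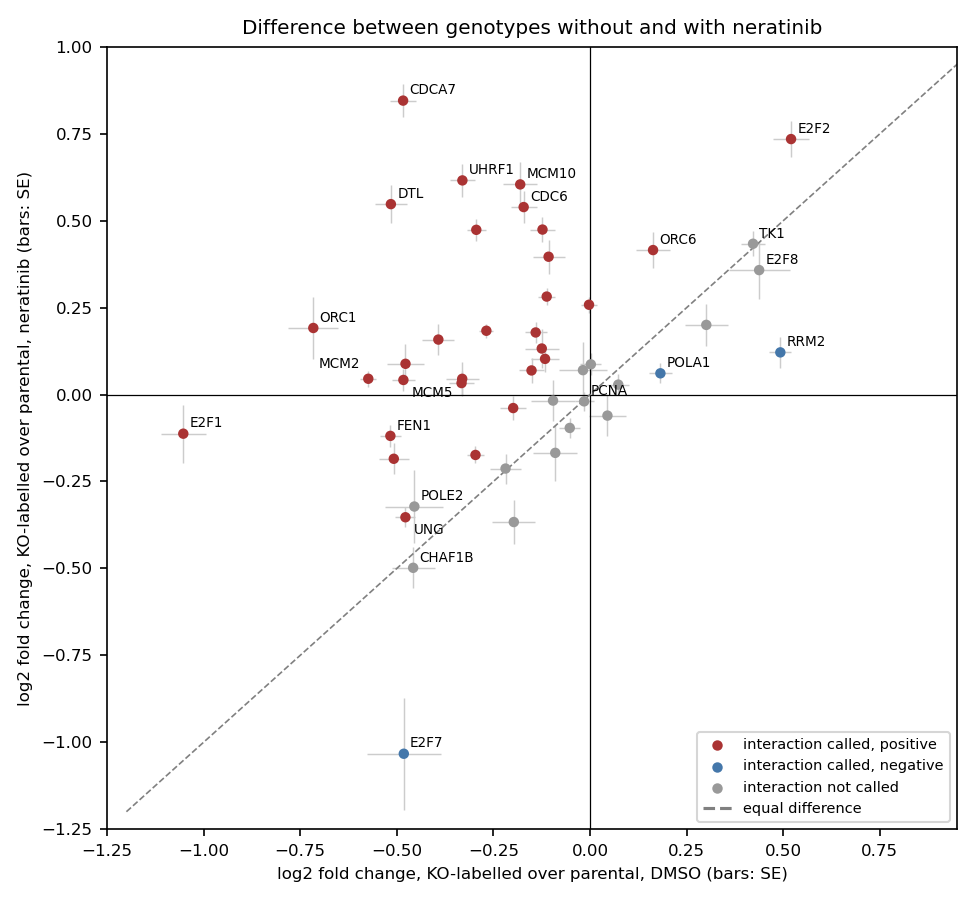
Log2 difference between KO-labelled and parental cells of each member in DMSO (horizontal) and in neratinib (vertical), with SE bars; colours give the interaction call and the dashed line marks equal differences. The 30 members with a positive interaction lie above the line. The 14 called lower in DMSO and higher in neratinib lie in the upper left, as do other members that lack a call in DMSO, neratinib or both.

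Genes of the same pathway outside the module were also tested for the neratinib response. Over all tested genes, 38.9% were called lower and 41.8% higher in parental cells, and 38.4% lower and 38.9% higher in KO-labelled cells. The interaction was called positive in 21.5% and negative in 24.6% of all tested genes. List counts near these shares say nothing particular about a list. Of 25 other S-phase E2F targets, 22 lower and 2 higher were called with neratinib in parental cells (median log2 change -0.56) and 17 lower and 3 higher in KO-labelled cells (median -0.36). Among them FAM111B, a protease, fell the most in parental cells, by 1.58 ± 0.035 (log2, SE). For 11 of the 25 the interaction was positive and for 4 negative. Of 32 other fork and origin genes, 18 lower and 11 higher were called in parental cells (median -0.20) and 17 lower and 10 higher in KO-labelled cells (median -0.14). MCMBP, which binds free MCM subunits, fell from 96.9, 95.4 and 97.99 to 41.2, 39.3 and 42.4 CPM in parental libraries. Of 14 other nucleotide synthesis genes, 11 lower and 2 higher were called in parental and 13 lower and 1 higher in KO-labelled cells. CTPS1, which makes CTP, fell by 2.24 ± 0.054 and 1.57 ± 0.059 (log2, SE).

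Upstream of the module, of 18 tested G1 cyclins, kinases and inhibitors, 10 lower and 8 higher were called with neratinib in parental cells and 11 lower and 6 higher in KO-labelled cells. The shares over all tested genes were 38.9% lower and 41.8% higher in parental cells, and 38.4% and 38.9% in KO-labelled cells. CCND1, cyclin D1, was at 402, 392 and 391 CPM in parental DMSO and 29.5, 30.6 and 28.4 CPM in parental neratinib libraries, and at 233, 233 and 239 and 24.7, 25.8 and 25.5 CPM in KO-labelled libraries. It thus fell further than any member, by 3.74 ± 0.026 and 3.21 ± 0.027, and was lower in KO-labelled DMSO libraries by 0.75 ± 0.019 (log2, SE). Within the 6 pathway lists, this one held the largest genotype differences in DMSO: MYC, a driver of growth and S-phase entry, at 1.42, 1.52 and 1.63 against 9.34, 9.61 and 11.1 CPM, and CDKN1A, the kinase inhibitor p21, at 18.05, 16.9 and 17.1 against 5.38, 5.42 and 4.75 CPM. Of 14 E2F, RB and DREAM regulators, 8 lower and 6 higher were called in parental cells with neratinib. E2F3, the remaining activator E2F, went from 29.5, 28.9 and 29.4 to 5.59, 5.92 and 5.53 CPM in parental and from 25.98, 25.7 and 24.9 to 8.49, 8.58 and 8.05 CPM in KO-labelled libraries. TFDP2, a dimer partner of E2F, rose by 1.42 ± 0.025 and 1.34 ± 0.026 (log2, SE).

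G2/M genes, whose proteins act later in the cycle, went the other way. Of 25, 4 lower and 20 higher were called with neratinib in parental cells (median log2 change 0.27) and 5 lower and 17 higher in KO-labelled cells (median 0.13). All tested genes had shares of 38.9% lower and 41.8% higher in parental cells, and 38.4% and 38.9% in KO-labelled cells. CDC25C, a phosphatase that triggers mitosis, went from 6.39, 5.99 and 6.05 to 17.6, 16.6 and 18.4 CPM in parental libraries. The summed G2/M level went from 1595 ± 8.22 to 1965 ± 6.62 CPM in parental cells and from 1832 ± 14.2 to 2148 ± 12.7 CPM in KO-labelled cells. In DMSO, 21 of the 25 were higher in KO-labelled cells and 1 was lower (median 0.19), while 32 of the 48 members were lower. Of all tested genes, 36.0% were called higher and 35.6% lower there. For 15 of the 25 the interaction was negative and for 1 positive, where 24.6% of all tested genes were called negative and 21.5% positive. How both lists together relate to the share of cells in each phase was not tested.

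The genes with the largest changes outside the module show how far the lists spread. Between genotypes in DMSO, the called genes of these lists with the largest positive and negative log2 differences were ORC4 (0.46) and TIPIN (-0.81) among fork and origin genes, RRM2B (0.57) and CAD (-0.99) among nucleotide synthesis genes, and LIN37 (0.31) and RBL1 (-1.38) among E2F, RB and DREAM regulators. Among the remaining lists they were CDKN1A (1.74) and MYC (-2.72) among G1 regulators, ESCO2 (0.67) and PSMC3IP (-0.73) among S-phase E2F targets, and CDK1 (0.63) and AURKA (-0.060) among G2/M genes. Between genotypes in neratinib, the corresponding genes were WDHD1 (0.70) and POLD4 (-0.53) among fork and origin genes, RRM2B (0.30) and DCK (-0.47) among nucleotide synthesis genes, and E2F3 (0.57) and RBL1 (-0.74) among E2F, RB and DREAM regulators. Among the remaining lists they were CDKN1A (1.16) and MYC (-2.78) among G1 regulators, ZNF367 (0.89) and MYBL2 (-0.52) among S-phase E2F targets, and CDK1 (0.53) and CDC25C (-0.22) among G2/M genes. For the parental response to neratinib they were MTBP (1.00) and MCMBP (-1.24) among fork and origin genes, RRM2B (0.20) and CTPS1 (-2.24) among nucleotide synthesis genes, and TFDP2 (1.42) and E2F3 (-2.37) among E2F, RB and DREAM regulators. Among the remaining lists they were CDKN1C (0.95) and CCND1 (-3.74) among G1 regulators, FAM111A (0.42) and FAM111B (-1.58) among S-phase E2F targets, and CDC25C (1.51) and CDC20 (-0.52) among G2/M genes. For the KO-labelled response they were MTBP (1.13) and MCMBP (-0.89) among fork and origin genes, IMPDH2 (0.21) and CTPS1 (-1.57) among nucleotide synthesis genes, and TFDP2 (1.34) and E2F3 (-1.61) among E2F, RB and DREAM regulators. Among the remaining lists they were CDKN1C (0.86) and CCND1 (-3.21) among G1 regulators, ZNF367 (0.34) and MYBL2 (-1.21) among S-phase E2F targets, and ASPM (1.40) and CDC20 (-0.56) among G2/M genes. For the interaction they were WDHD1 (0.73) and POLE4 (-0.28) among fork and origin genes, CAD (0.85) and MTHFD2 (-0.41) among nucleotide synthesis genes, and E2F3 (0.76) and RBL2 (-0.38) among E2F, RB and DREAM regulators. Among the remaining lists they were CDK6 (0.69) and CDKN2C (-0.83) among G1 regulators, ZNF367 (0.93) and FAM111A (-0.41) among S-phase E2F targets, and ASPM (0.19) and NUSAP1 (-0.31) among G2/M genes.

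The members lie on 20 chromosomes. Around each, the 25 nearest tested protein-coding genes on either side gave a local median of the genotype difference in DMSO, which lay within 0.1 of 0 for 31 of 48 members and ranged from -0.32 to 0.31 on the log2 scale. Around E2F1 on chromosome 20, 39 of 50 neighbours were lower in KO-labelled cells in DMSO by estimate (median -0.27), and 38 of 50 in neratinib (median -0.30). The difference of E2F1 itself was larger in DMSO and smaller in neratinib than these medians, and the part of the neighbourhood was not tested. Around GINS4 on chromosome 8 the medians were 0.26 in DMSO and 0.22 in neratinib, near its own differences of 0.30 and 0.20. On chromosome 11 they were -0.27 and -0.43 around FEN1, and -0.23 and -0.26 around POLA2. The ends of the range were around MCM10 on chromosome 10, with medians of -0.32 and -0.39, and MCM6 on chromosome 2, with 0.31 and 0.31. MCM10 itself differed by -0.18 in DMSO and 0.60 in neratinib, and MCM6 by -0.29 and 0.47. MCM10 thus went against its neighbours in neratinib, and MCM6 in DMSO. The part of these neighbourhoods was not tested either. With the 10 nearest genes on either side, 29 of the 48 local medians lay within 0.1 of 0, and those around E2F1 were -0.41 in DMSO and -0.54 in neratinib. In the same order they were 0.27 and 0.27 for GINS4, -0.014 and 0.013 for FEN1, and -0.098 and -0.19 for POLA2. Around MCM10 they were -0.085 and -0.13, and around MCM6 0.45 and 0.66.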

How the data were processed

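Read counts per gene were deposited by the authors as whole numbers for 12 libraries. Per the labels' protocols, total RNA was extracted with a column kit and libraries were made with a TruSeq RNA kit, which selects poly(A) RNA and does not mark strand, and sequenced as single reads. Per the submitters' processing notes, FastQC 0.11.7, STAR 2.7.9 and edgeR 3.40.2 were used with GRCh38 (hg38); the counter, annotation and strand setting are not given in the sources used here. The 581 lines without a symbol (0.0877% to 0.124% of counts) were left out.

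Counts were tested with edgeR 4.0.16 in R 4.3.3 (filterByExpr, TMM, quasi-likelihood test, 4 group means, all 12 libraries). Adjusted p-values are Benjamini-Hochberg over 16208 genes with a threshold of 0.05, and glmTreat tested against 1.5-fold. Depth was 32471198 to 44726160 counts per library. Alternatives were DESeq2 1.42.0, other scalings, filters and spreads, a replicate block and leaving out each library. Scripts were tested on simulated data. The members and lists were chosen with earlier results of these data known. By rule, values are given for members that were not called or went against the majority, the 2 with the largest changes per role and comparison, the largest interactions of each sign, and the largest change in each direction per pathway list; other members were described after their values were seen.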

Additional observations from a re-analysis of the deposited data

Results flagged for a closer look

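For 33 members the neratinib response differed between genotypes by the interaction term of edgeR's quasi-likelihood test, which tests the difference itself. The values below are log2 responses of KO-labelled cells less those of the parental line, with adjusted p from 8.12e-23 to 0.0157. Among origin licensing genes the difference was positive for ORC1 (0.91), MCM6 (0.77), CDC6 (0.71), MCM2 (0.62), CDT1 (0.60), MCM5 (0.53), MCM7 (0.45), MCM4 (0.26), ORC6 (0.25) and MCM3 (0.12). Among helicase activation genes the difference was positive for MCM10 (0.79), GINS2 (0.57), GINS1 (0.55) and CDC45 (0.26). Among clamp loader genes the difference was positive for RFC2 (0.32), RFC4 (0.22) and RFC5 (0.16). Among polymerase and Okazaki fragment genes the difference was positive for FEN1 (0.40), POLE (0.39), POLA2 (0.37) and POLD1 (0.22). Among E2F factors the difference was positive for E2F1 (0.94) and E2F2 (0.21). Among chromatin genes the difference was positive for CDCA7 (1.33), UHRF1 (0.95) and CHAF1A (0.38). Among checkpoint, turnover and repair genes the difference was positive for DTL (1.06), CLSPN (0.50), RMI2 (0.32) and UNG (0.12). It was negative for POLA1 (-0.12), RRM2 (-0.37) and E2F7 (-0.55). The calls for POLA1 and E2F7 were lost without single libraries, as given above.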

How the results depend on the processing

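No call of a named member changed direction under any alternative run. Of the counts of members called, those for the parental response lower, the KO-labelled response lower and the interaction positive stayed within 1.5 times under every scaling and filter, DESeq2 and each left-out library. Members called higher in the KO-labelled response, 1 in the text, numbered 0 with DESeq2, 0 without the low-count filter, 2 with library totals alone, 2 with upper quartile scaling, 2 with a mean of at least 5 CPM, and 0 to 1 when single libraries were left out. Negative interactions numbered 1 with DESeq2. With the coefficient of variation set to 0.1, which replaces the measured spread by a larger one, members called numbered 5 higher and 19 lower between genotypes in DMSO, 13 higher and 4 lower in neratinib, 13 positive and 0 negative for the interaction, and 0 higher in either neratinib response. A 2-fold instead of a 1.5-fold test, by its construction stricter, left 0 lower in DMSO, 0 higher and 0 lower between genotypes in neratinib, 14 and 3 lower in the parental and KO-labelled responses, and 1 positive interaction. The median response was -0.69 in parental cells with library totals alone. In KO-labelled cells it was -0.39 with library totals alone and with upper quartile scaling, -0.48 without a filter, -0.38 with at least 5 CPM, and -0.45 to -0.42 without single libraries. The median DMSO difference was -0.15 with at least 5 CPM. These scalings moved the median of all genes by at most 0.079, and the cause of the other moves was not tested.

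Estimates that changed sign all belonged to members that were not called, and the cause was not tested. Between genotypes in DMSO, SLBP was -0.015 with DESeq2, -0.013 with DESeq2-style factors and -0.0036 without a filter. MCM4 was 0.0096 with library totals, 0.017 with upper quartile scaling, 0.021 with at least 5 CPM and 0.00088 with only the groups compared. With upper quartile scaling and at least 5 CPM, PCNA was 0.0043 and 0.0082 and DSCC1 0.0013 and 0.0051. In neratinib, with at least 5 CPM, PCNA was 0.0083 and GINS3 0.010. In the KO-labelled response, with library totals, upper quartile scaling and at least 5 CPM, GINS1 was 0.047, 0.046 and 0.056, RFC4 0.0021, 0.0011 and 0.012, and RFC5 0.015, 0.014 and 0.025. The interaction of PCNA was 0.019 with DESeq2, 0.018 with DESeq2-style factors and 9.27e-05 with at least 5 CPM. That of RFC3 was -0.018 with library totals, -0.0039 with upper quartile scaling and -0.0028 without a filter, and that of TK1 -0.012 with library totals. When single libraries were left out, sign-changing estimates ranged over -0.035 to 0.014 for SLBP, -0.051 to 0.0085 for PCNA and -0.12 to 0.035 for DSCC1 in DMSO. They ranged over -0.035 to 0.0054 for PCNA, -0.051 to 0.037 for GINS3, -0.19 to 0.0086 for E2F1 and -0.0011 to 0.054 for POLA2 in neratinib, and -0.045 to 0.0078 for GINS1 in the KO-labelled response. For the interaction they ranged over -0.034 to 0.040 for PCNA, -0.029 to 0.041 for RFC3, -0.078 to 0.031 for CHAF1B, -0.027 to 0.050 for TK1 and -0.15 to 0.023 for HELLS.

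Deviations of libraries with the same replicate number had correlations of -0.021 to 0.041 over 18 pairs. Pairs with different numbers had -0.047 to 0.063 over 36 pairs. An effect shared by number was thus not visible, which cannot show whether libraries of the same number were handled together. With a replicate block, 32 members were lower and 8 higher in DMSO, 10 lower and 24 higher in neratinib, 46 lower and 1 higher in the parental response, 42 lower and 1 higher in the KO-labelled response, and the interaction was positive in 30 and negative in 3. The fit with only the groups compared could not be run for the interaction, which needs all 4. Low members such as E2F7 rest on few counts, for which counting error is larger, and its part in their spread was not tested.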
